A study of Rattus norvegicus with 16 samples.

Results

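The comparison described here is that of GW347845, a PPARγ agonist, with vehicle in isolated rat pancreatic islets that carried only their own PPARγ. It rests on 6 of the 16 arrays of the series. These are replicates 1, 3 and 4 of the islets given null adenovirus and vehicle and replicates 1, 3 and 4 of those given null adenovirus and the compound, compared in 3 pairs of one replicate number. Replicate 2 of both groups was left out because its 2 columns held the same value in 100% of the probe sets. Any other pair of columns had equal values in at most 0.936%.

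The study crossed virus with compound on a rat oligonucleotide expression array. Islets of the null virus vehicle group were exposed for 32 h to null adenovirus, 50 viral particles for each cell, and were then kept for 16 h in 0.004% DMSO. The null virus compound group received the same virus in the same way and was then kept for 16 h with 200 nM GW347845. The 8 arrays of the other groups, 4 with vehicle and 4 with the compound, came from islets given an adenovirus carrying PPARγ. Their virus dose, exposure times and concentrations of DMSO or GW347845 were the same as in the null virus groups. These arrays are set beside the null virus arrays. They also share in the estimate of spread and in the choice of the probe sets tested. All groups carried an adenovirus, so no group shows the compound in uninfected islets. Strain, age and sex of the rats are not given in the labels, nor is it said whether replicates were separate islet preparations or cultures. The p-values therefore measure only the spread between these arrays, which may be technical.

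PPARγ is a nuclear receptor that binds DNA as a heterodimer with a retinoid X receptor and, when an agonist occupies it, recruits coactivators to its target genes. It is best known from adipocytes, where its targets take up, carry, activate and store fatty acids. Islets hold little of it, and its targets in islets include genes of lipid handling that beta cells share with other tissues.

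No probe set passed the test for the compound under the null virus. Among 10078 probe sets tested, 0 (0%) had an adjusted p under 0.05 in limma with Benjamini-Hochberg adjustment, and the smallest adjusted p was 0.708. Without adjustment, 199 (1.97%) were higher and 212 (2.1%) lower with the compound at a p under 0.05. The 3 compound arrays all lay above the 3 vehicle arrays in 210 probe sets (2.08%) and all below them in 255 (2.53%). The compound array was the higher of its pair in all 3 pairs in 1108 probe sets (11%) and the lower in 1159 (11.5%). With 3 pairs, an exact paired permutation test of a single gene cannot give a two-sided p below 0.25, so the tests below come from limma, which shares the spread over all probe sets and over the 14 arrays fitted.

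Changes are given as log2 differences of intensity plus 4.6, averaged over the pairs, with the standard error or 95% confidence interval of the fit. The added 4.6 understates the change of dim probe sets. The interval reached a median of 0.27 to either side of the estimate, with a 5th to 95th percentile of 0.17 to 0.49. The interval lay entirely within a 2-fold change either way for 9930 probe sets (98.5%) and within 1.5-fold for 8805 (87.4%). The median change over all tested probe sets was 0.00, and the median size of a change, regardless of sign, was 0.08, against 0.09 for the compound under the PPARγ virus. The SD between the means of the 3 pairs exceeded the size of the compound's change in 71.2% of the probe sets. Across probe sets, the differences within one pair had a Pearson r of -0.08, 0.03 and -0.03 with those within another. Under the PPARγ virus the corresponding 6 values lay between 0.12 and 0.26. These correlations are across genes, which are not independent replicates, and are given as a description.

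The arrays used were alike in brightness, with median intensities of 59.1 to 65.0. The ratio of 3′ to 5′ signal, which rises as RNA degrades, was 9.05 to 10.5 for Gapdh in 5 of the 6 arrays and 18.9 in compound replicate 3. For actin it was 8.52, 11.7 and 7.83 in vehicle replicates 1, 3 and 4 and 10.01, 14.5 and 11.7 in the compound arrays, higher in 3 of 3 pairs (exact paired permutation test, two-sided p = 0.25, which 3 pairs cannot go below, and an adjusted p of 0.75 for 3 such measures). The part of this difference in the values below was not tested, and pair 3, which holds the array with the Gapdh ratio of 18.9, is given apart where a count turns on it.

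The receptor itself was dim. Pparg read 32.3, 27.7 and 39.1 in vehicle replicates 1, 3 and 4 and 25.6, 51.4 and 30.5 in the compound arrays. The groups overlapped and the pairs pointed in different directions, 1 of 3 upward, with a log2 change of 0.06 ± 0.17 (SE, n = 3 pairs). With the PPARγ virus the same probe set read between 4593 and 6199 in all 8 arrays. Ppard, which encodes a related receptor, read 112.1, 105.7 and 107.6 with vehicle and 109.6, 105.2 and 92.4 with the compound (log2 change -0.08 ± 0.13). Rxrg, a heterodimer partner, had a log2 change of 0.22 ± 0.23 and was higher in 1 of 3 pairs. Ppara, Rxra and Rxrb were too dim to be tested. Of 20 genes listed as receptors and cofactors, 9 were tested, and the median log2 change was 0.01.

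Classical PPARγ targets were tested through a list of 42 genes of lipid handling, of which 26 could be tested. Under the null virus 0 of the 26 passed, 15 were above 0, and their median log2 change was 0.06, or -0.03 without pair 4. In all 3 pairs, 6 were higher and 4 lower. At an unadjusted p under 0.05 in limma, 3 were higher (Angptl4, Fabp4 and Lpl) and 2 lower (Pdk4 and Aqp7), where 1.97% of all probe sets were higher and 2.1% lower. In the null virus arrays, 5 of the 26 (Fabp4, Cd36, Aqp7, Pdk4 and Nr1h3) were too dim to pass a filter on these arrays alone and were tested through the PPARγ virus arrays. Of the other 21, 12 were above 0, with a median of 0.05. For 23 of the 26 the 95% interval lay within a 2-fold change. With the PPARγ virus, the same 26 had a median of 0.44 and 9 passed upward, against 36 (0.357%) of all tested probe sets. The list was chosen with earlier results of these data known.

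Fabp4, the fatty acid carrier typical of adipocytes and macrophages, read 9.8, 14.9 and 26.3 with vehicle and 20.3, 21.1 and 43.0 with the compound. Each compound array was above the vehicle array of its number, but the groups overlapped, since vehicle replicate 4 exceeded compound replicates 1 and 3. The log2 change was 0.60 ± 0.18 (SE, n = 3 pairs), with a 95% interval of 0.21 to 1.00, an unadjusted p of 0.00636 and an adjusted p of 1.00 in limma. All 3 vehicle readings lie under 39.3, the intensity that a probe set had to exceed in at least 4 of the 14 arrays to be tested, and among the null virus arrays only compound replicate 4 did, so Fabp4 was tested through the PPARγ virus arrays.

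Cd36 encodes the fatty acid translocase. A probe set that the annotation gives to Cd36 and to Cd36l1, named after its values were seen, read 167.7, 144.1 and 160.1 with vehicle and 275.6, 207.0 and 319.8 with the compound. The groups did not overlap. Its log2 change of 0.73 ± 0.15 had the 4th smallest p of all probe sets in limma (unadjusted 3.49e-04, adjusted 0.767). The probe set annotated to Cd36 alone was far dimmer, at 12.5, 7.6 and 2.6 with vehicle and 18.7, 8.2 and 13.3 with the compound (log2 change 0.61 ± 0.35, interval -0.16 to 1.38).

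Lipoprotein lipase and its inhibitor were both higher in every pair. Angptl4, the secreted inhibitor, read 83.6, 67.5 and 46.7 with vehicle and 153.9, 77.6 and 112.9 with the compound, a log2 change of 0.74 ± 0.24 with an interval of 0.23 to 1.26. Vehicle replicate 1 was above compound replicate 3, so the groups overlapped. Lpl, the lipase, read 156.8, 126.7 and 126.8 with vehicle and 177.6, 159.7 and 253.5 with the compound. These groups did not overlap, and the log2 change of 0.49 ± 0.19 came mostly from pair 4. Without pair 4 the log2 change of Lpl was 0.25, the lowest of 18 fits. Both genes had adjusted p-values of 1.00 in limma.

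**Figure D1:**
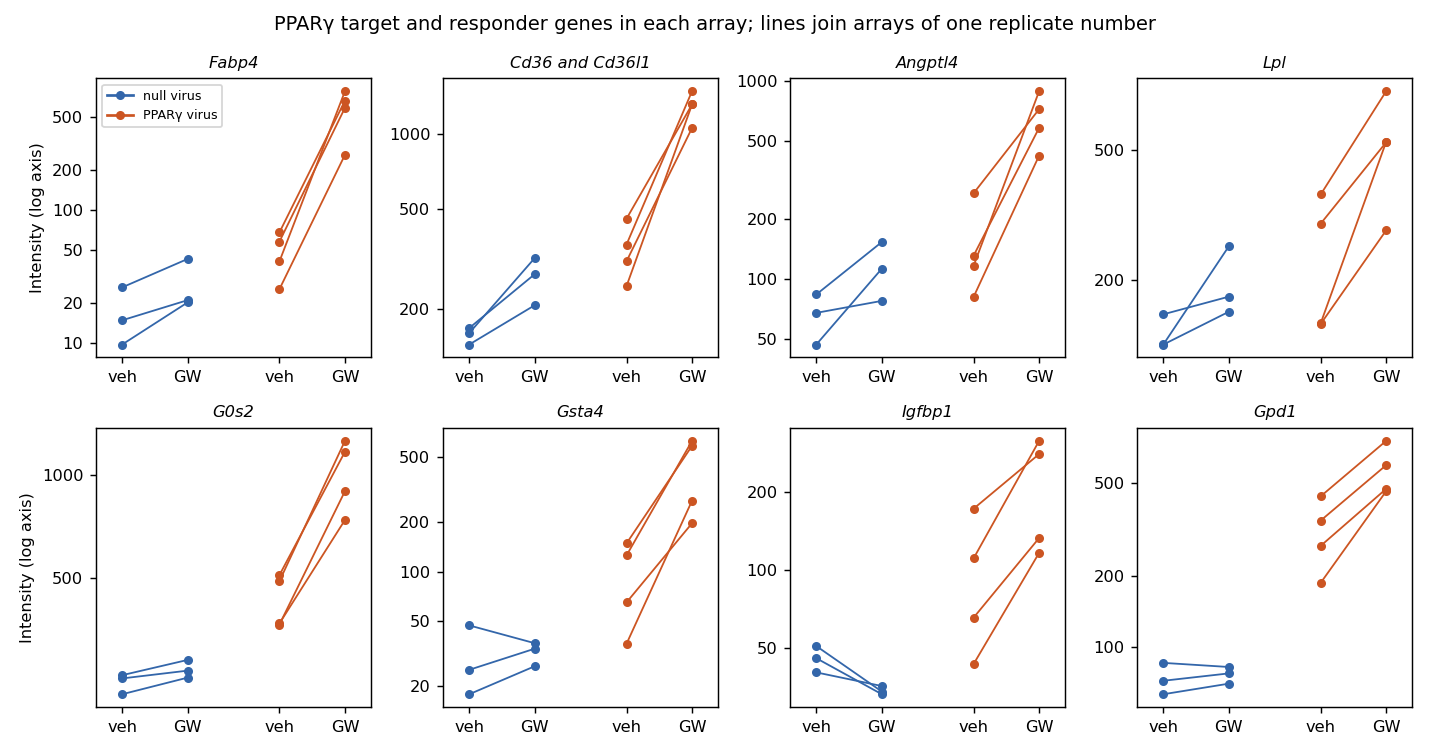
Intensity (log axis) of 8 PPARγ target or responder genes in each array, with vehicle (veh) and GW347845 (GW) under the null virus (blue, 3 pairs) and the PPARγ virus (orange, 4 pairs), lines joining arrays of one replicate number. Fabp4, the probe set of Cd36 and Cd36l1, Angptl4, Lpl and G0s2 are higher in all 3 null virus pairs, and Igfbp1 is lower in all 3.

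Genes of triacylglycerol storage had small changes. G0s2, an inhibitor of adipose triglyceride lipase, read 253.8, 228.2 and 259.4 with vehicle and 267.5, 255.2 and 287.5 with the compound. It was higher in each pair, with overlapping groups and a log2 change of 0.13 ± 0.09. Plin2, the lipid droplet coat protein, had a log2 change of 0.18 ± 0.11 and was also higher in 3 of 3 pairs. Gpd1, which makes glycerol 3-phosphate, Dgat2, which adds the last acyl chain, and Acsl1, which activates fatty acids, had log2 changes of 0.06 ± 0.11, 0.09 ± 0.10 and -0.02 ± 0.12. Each of these 5 genes passed under the PPARγ virus, at 1.21, 0.62, 0.91, 0.72 and 0.76 in the order named. A dimmer probe set had 0.07 for Plin2 and -0.03 for Acsl1 under the null virus. Under the PPARγ virus these dimmer probe sets had 0.24 and 0.74, and neither passed.

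Other members of the list were lower with the compound. Pdk4, the kinase that inhibits pyruvate dehydrogenase, and Aqp7, the glycerol channel, had log2 changes of -0.35 and -0.36, and Mgll, the monoacylglycerol lipase, -0.35. In each of these 3 genes all compound arrays lay below all vehicle arrays, as in 2.53% of all probe sets, and none passed after adjustment. They were dim, with means of 41.4 and 31.6 for Pdk4, 31.2 and 23.3 for Aqp7 and 44.0 and 33.7 for Mgll in the vehicle and compound arrays. Lpl was the only listed gene tested whose compound arrays all lay above, as in 2.08% of all probe sets. Cd36 stood in the list by its dim probe set. For the brighter probe set shared with Cd36l1, which is outside the list, the compound arrays also all lay above.

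**Figure D2:**
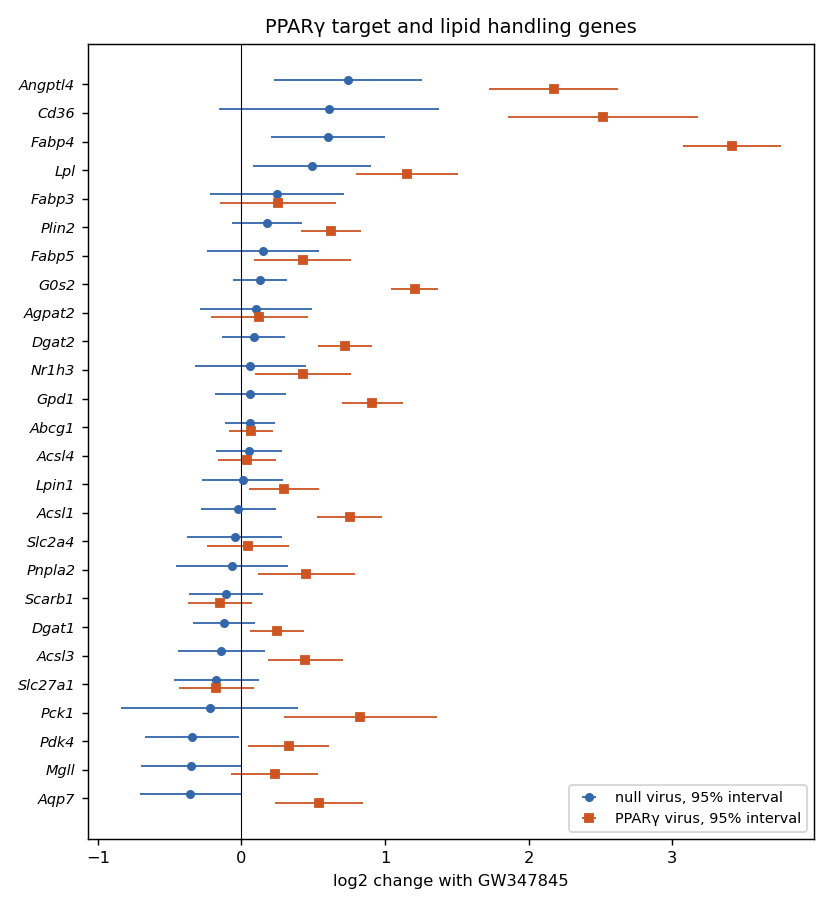
Log2 change with the compound for the 26 tested genes of the PPARγ target list, under the null virus (blue, 3 pairs) and under the PPARγ virus (orange, 4 pairs), with 95% confidence intervals from limma. Fabp4, Cd36, Angptl4 and Lpl have the highest null virus values, between 0.49 and 0.74, and most of the others lie near 0.

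The list divided by the response under the PPARγ virus. Of the 9 members that passed there, 8 were above 0 under the null virus and 6 were higher in 3 of 3 pairs, with a median log2 change of 0.18 against 1.15 with the added receptor. These 9 include Fabp4 and Cd36, and of the 7 bright enough in the null virus arrays alone, 6 were above 0 and 4 higher in 3 of 3 pairs, with a median of 0.13. Over all tested probe sets, 50.02% were above 0 and 11% higher in 3 of 3 pairs. Of the other 17 members, 7 were above 0, and their median was -0.06.

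The same reading was made for all probe sets that passed under the PPARγ virus, 36 upward (0.357%) and 4 downward (0.0397%). Without 1 pair of the PPARγ virus arrays, 18 to 22 probe sets passed in place of these 40. The 2 contrasts share no array, but they share the estimate of spread. Of the 36, 27 (75%) were above 0 under the null virus, against 50.02% of all tested probe sets. Their median log2 change was 0.09, against 0.93 with the PPARγ virus. In 13 of the 36 (36.1%, against 11% of all tested) the compound was higher in 3 of 3 pairs, and in 3 (8.33%, against 2.08%) it was higher with no overlap. At an unadjusted p under 0.05 in limma, 6 were higher and 1 was lower, against 1.97% and 2.1% of all tested. The 6 were Fabp4, Angptl4, Lpl, Mgst1, the probe set of Cd36 and Cd36l1, and Hs3st1, a heparan sulfate sulfotransferase, and the 1 was Igfbp1. Hs3st1, named after its values were seen, had a log2 change of 0.52 ± 0.19 under the null virus against 1.04 under the PPARγ virus. The medians of the 36 within pairs 1, 3 and 4 were 0.12, 0.03 and 0.16, with 25, 20 and 26 members above 0. In 28 of the 36 the null virus arrays alone were bright enough to pass a filter on them, and of these 20 were above 0 and 11 higher in 3 of 3 pairs, with a median of 0.10.

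All 36 null virus intervals ended below the change estimated under the PPARγ virus. The 36 were chosen by that change, so this count is a description only. Mgst1, a microsomal glutathione transferase, was among the members with an unadjusted p under 0.05 (0.0168 in limma). It read 320.2, 201.4 and 323.4 with vehicle and 370.5, 241.4 and 432.9 with the compound, higher in each pair with overlapping groups, a log2 change of 0.29 ± 0.10 against 0.95. Srp9, a subunit of the signal recognition particle, had 0.19 ± 0.10 against 0.75, and Pdpn, the membrane glycoprotein podoplanin, 0.12 ± 0.09 against 0.72. Pex11a, a peroxisome division factor, had 0.12 ± 0.15 against 0.90. Ang, a secreted ribonuclease, had 0.08 ± 0.18 against 1.12, and the growth factor gene Igf1 0.07 ± 0.36 against 2.19. Igf1 and Plek read at most 10.1 in any null virus array, so for these the null virus arrays hold little information. A brighter probe set of Igf1 had log2 changes of -0.11 under the null virus and 0.32 under the PPARγ virus. Of the 4 probe sets that fell under the PPARγ virus, 1 was above 0 under the null virus, with a median of -0.12.

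**Figure D3:**
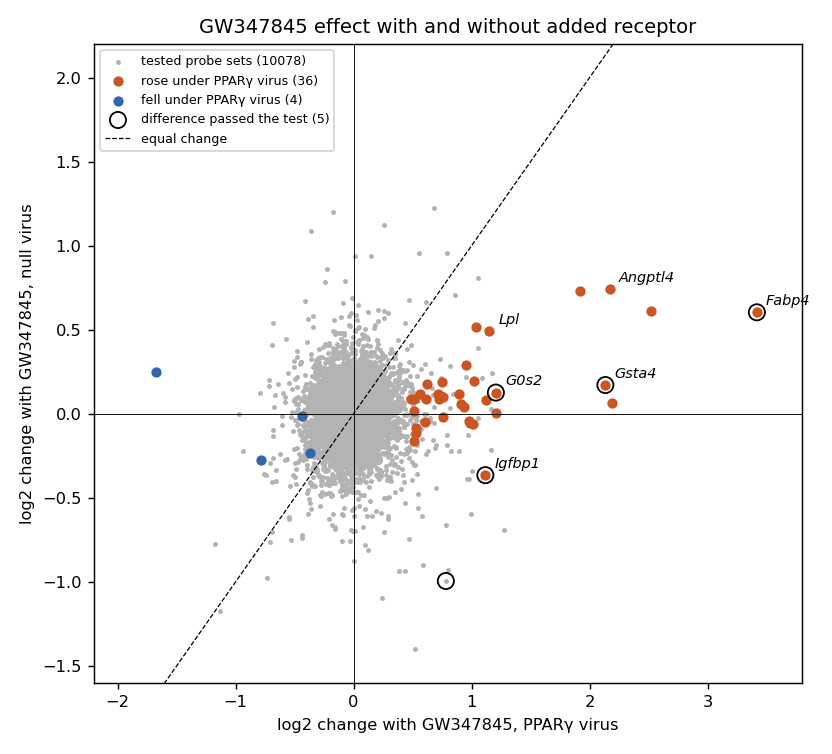
Log2 change with the compound under the PPARγ virus (horizontal axis, 4 pairs) against that under the null virus (vertical axis, 3 pairs), 1 point per probe set tested, with the probe sets that passed under the PPARγ virus and those that passed the test of the difference marked. The 36 that rose with the added receptor have a median of 0.93 on the horizontal axis and 0.09 on the vertical axis.

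The difference between both viruses in the compound's change was tested directly. It passed for 5 probe sets (0.0496%), all with the higher value under the PPARγ virus. Fabp4 differed by 2.81 ± 0.24 (SE; adjusted p = 0.00104 in limma) and G0s2 by 1.08 ± 0.11 (adjusted p = 0.00464). Igfbp1, which encodes a secreted protein that binds insulin-like growth factors, differed by 1.48 ± 0.21 (adjusted p = 0.0368) and Gsta4, a glutathione transferase, by 1.96 ± 0.28 (adjusted p = 0.0374). A probe set without a gene name, 1398445_at, differed by 1.78 ± 0.23 (adjusted p = 0.0303). Fabp4 and G0s2 lost the call in 1 alternative each, the fit that ignored the pairing. Gsta4 lost it in 11 of 15, Igfbp1 in 11 of 16 and the unnamed probe set in 10 of 15, among them each fit without 1 null virus pair. Such a fit left 2 calls, whichever pair was left out. Of the 5, only G0s2 and Igfbp1 were bright enough to pass a filter on the null virus arrays alone. Igfbp1 did so only through its vehicle arrays, at 50.8, 45.6 and 40.2, with no compound array above 35.6. Passing in that way favours a lower value with the compound. The other 3 of the 5 were tested through the PPARγ virus arrays and have no value under that filter. Fabp4 and Gsta4 are higher in those arrays with vehicle and with the compound. The unnamed probe set is higher there only with the compound, with a mean of 71.7. Its mean with vehicle was 38.7 under the PPARγ virus and 46.5 under the null virus.

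For 2 of these the null virus values lay below 0. Igfbp1 read 50.8, 45.6 and 40.2 with vehicle and 33.9, 33.1 and 35.6 with the compound, with no overlap and a log2 change of -0.36 ± 0.16, against 1.12 with the PPARγ virus. The unnamed probe set read 49.5, 56.7 and 33.4 with vehicle and 25.5, 30.0 and 10.7 with the compound, also with no overlap and a log2 change of -0.99 ± 0.18 against 0.78. Neither passed under the null virus. Gsta4 read 46.9, 17.8 and 25.1 with vehicle and 36.5, 26.4 and 33.8 with the compound, overlapping groups with 2 of 3 pairs upward. Its log2 change of 0.17 ± 0.21 ran from 0.02 without pair 3 to 0.42 without pair 1. For the probe set of Cd36 and Cd36l1, the difference of 1.19 did not pass (adjusted p = 0.0965 in limma).

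Genes of fatty acid oxidation lay close to 0. Of 37 genes listed for mitochondrial and peroxisomal oxidation, 32 were tested, 19 were above 0, and the median log2 change was 0.05, against 0.17 with the PPARγ virus. None of the 32 passed, none had an unadjusted p under 0.05 in limma, and all 32 intervals lay within a 2-fold change. Acadl, the long-chain acyl-CoA dehydrogenase, had the smallest p of the list, with 0.19 ± 0.11. Decr1 and Acaa2, which passed under the PPARγ virus at 0.51 and 0.49, had 0.02 ± 0.08 and 0.09 ± 0.10. In the respiratory chain and citrate cycle, 22 of 30 tested genes were above 0 with a median of 0.03, against 50.02% of all tested probe sets above 0. The medians within pairs 1, 3 and 4 were 0.04, 0.12 and -0.07, so pair 4 went the other way. Of the 30, 3 were higher at an unadjusted p under 0.05 in limma (Idh3a, Idh2 at 0.25 and Uqcrc2 at 0.16), against 1.97% of all tested. In 2 the compound arrays all lay above the vehicle arrays, against 2.08%. None passed after adjustment. Idh3a, a subunit of isocitrate dehydrogenase, had the smallest p there, reading 116.1, 85.9 and 134.4 with vehicle and 119.2, 124.9 and 181.8 with the compound (0.33 ± 0.12). Fatty acid synthesis and desaturation had 16 tested genes, 5 above 0, and a median of -0.03. Its member of smallest p, the desaturase Fads2, had -0.33 ± 0.18.

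Genes of beta cell identity and glucose sensing did not pass. The insulin gene Ins1 read 5580, 5332 and 7093 with vehicle and 6053, 5685 and 5335 with the compound. Pairs 1 and 3 were upward and pair 4 downward, with a log2 change of -0.07 ± 0.09 and an interval of -0.26 to 0.13. Ins2, the other insulin gene, had -0.01 ± 0.08 (-0.18 to 0.16), and Slc2a2, the glucose transporter of rat beta cells, -0.03 ± 0.10 (-0.26 to 0.20). Pdx1, a transcription factor of beta cell identity, had -0.10 ± 0.10, and Gipr, the receptor of an incretin hormone, -0.18 ± 0.10. Of the 18 tested members of the beta cell list, 1 was above 0 (Nkx6-1, 0.03), with a median of -0.07, and 0 had an unadjusted p under 0.05 in limma. The medians within pairs 1, 3 and 4 were -0.06, 0.03 and -0.23, so the value below 0 came mainly from pair 4. The lowest value was that of Gjd2, a gap junction protein, at -0.31 (interval -0.75 to 0.13), with all compound arrays below the vehicle arrays. Pcsk2, a prohormone convertase, had -0.28 (-0.67 to 0.12). The interval lay within a 1.5-fold change for 16 of the 18. For Kcnj11, the pore of the beta cell potassium channel, 3 probe sets disagreed, with log2 changes of 0.14, 0.37 and -0.19, and the last and brightest of them stood for the gene.

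The hormones of the other islet cells did not pass. Gcg, the glucagon gene, had a log2 change of 0.10 ± 0.18 and Sst, the somatostatin gene, 0.02 ± 0.23. Ppy, which encodes pancreatic polypeptide, read 1708, 917.7 and 3919 with vehicle and 2106, 1004 and 2906 with the compound, a change of 0.00 ± 0.17. Replicate 4 was highest and replicate 3 lowest in both groups. In bulk RNA, fewer cells of a type and less RNA per cell cannot be told apart.

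Markers of other pancreatic cells were examined as well, and none passed. Of 16 acinar markers, 4 were bright enough to be tested, and their summed intensity was 121 to 288 with vehicle and 128 to 361 with the compound. Among them Prss1, the trypsinogen gene, read 108.2, 24.3 and 22.5 with vehicle and 151.7, 37.1 and 35.8 with the compound (0.53 ± 0.17), higher in each pair and highest in replicate 1 of both groups. The 8 tested duct markers had a median log2 change of -0.01 and the 13 endothelial and stromal markers -0.02. Within pairs 1, 3 and 4 the endothelial and stromal medians were -0.06, -0.21 and 0.11. Col3a1, a fibrillar collagen, had -0.25 ± 0.09 and was lower in 2 of 3 pairs. The 10 tested leukocyte markers had a median of -0.10 and a summed intensity of 684 to 1030 with vehicle and 586 to 957 with the compound. Their medians within pairs 1, 3 and 4 were -0.16, -0.27 and 0.06. Lyz2, lysozyme of macrophages, which can carry PPARγ and Fabp4 themselves, had -0.27 ± 0.11 and was lower in 3 of 3 pairs. Cd14, another marker of these cells, had 0.16 and was higher in 3 of 3, Cd68 had 0.02, and the range over the 10 was -0.35 (Cd74) to 0.31 (RT1-Ba). The part of leukocytes in the Fabp4 values was not tested.

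In the remaining lists no member passed. Of 25 interferon and antigen presentation genes, 17 were above 0, with a median of 0.04. Psmb10, an immunoproteasome subunit, had the smallest p of that list, reading 415.8, 371.9 and 329.7 with vehicle and 265.1, 307.6 and 233.2 with the compound. Its groups did not overlap, and its log2 change was -0.47 ± 0.09 (adjusted p = 0.767 in limma). The medians were 0.01 for 18 inflammatory genes, -0.02 for 22 genes of the endoplasmic reticulum stress response and 0.05 for 15 immediate early and heat shock genes. Within pairs 1, 3 and 4 the inflammatory medians were 0.15, -0.22 and 0.08. Those of the immediate early and heat shock genes were 0.08, -0.25 and 0.08, so pair 3 was lowest in both lists. Junb, an immediate early transcription factor, had -0.74 ± 0.36, with compound replicate 3 at 21.0 against 69.4 in its vehicle array, and -0.35 without pair 3. The 24 cell cycle genes had a median of 0.07, with Aurkb, a mitotic kinase, at 0.38 ± 0.17. Of the 24, 17 were above 0 and 6 higher in 3 of 3 pairs, against 50.02% and 11% of all tested probe sets. Of 21 antioxidant and xenobiotic genes, 10 were above 0 with a median of -0.01. The glutathione transferase Gsta1 had the smallest p of them, reading 239.4, 567.1 and 277.0 with vehicle and 330.2, 697.2 and 388.8 with the compound. It was higher in each pair, by 0.41 ± 0.09, with overlapping groups because both arrays of replicate 3 were brighter, and its change under the PPARγ virus was -0.09.

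**Figure D4:**
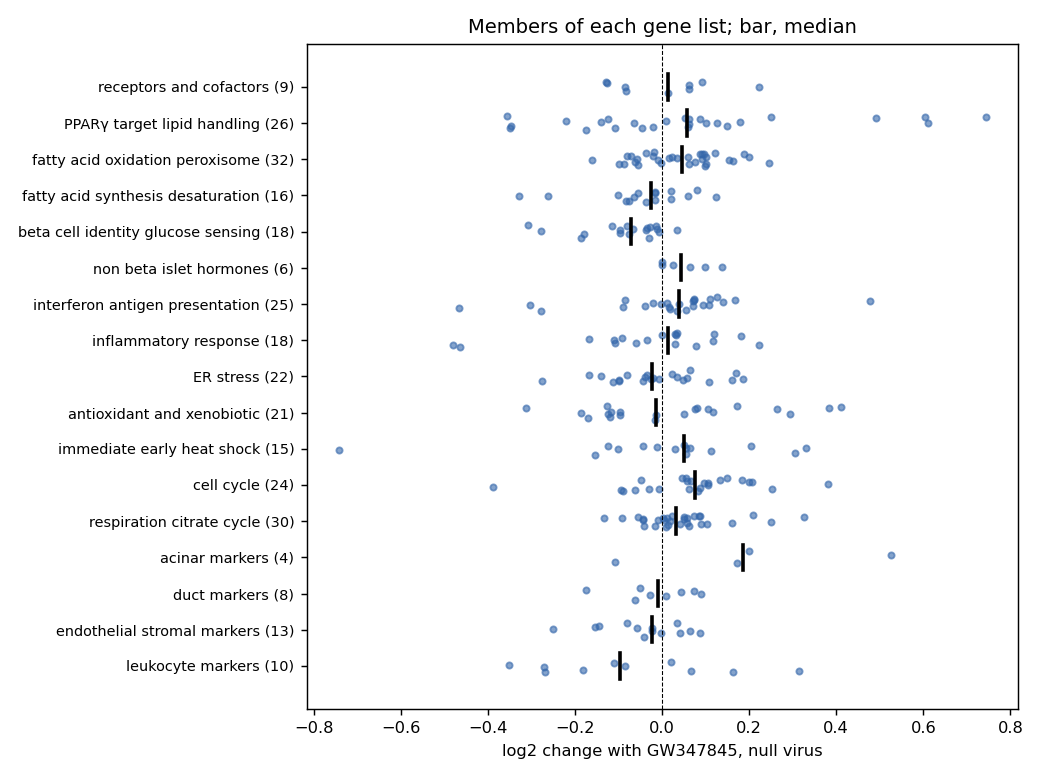
Log2 change with the compound under the null virus for each tested gene of each gene list (points), with the median of the list marked, and the list's name with its number of tested genes. Medians lie between -0.10 for the leukocyte markers and 0.19 for the acinar markers, around the 0.00 of all tested probe sets.

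The probe sets of smallest p under the null virus did not pass, and their values are given as such. Among the 10 named genes of smallest p with a higher value, Eid1, an inhibitor of coactivator acetyltransferases, read 513.2, 593.9 and 521.0 with vehicle and 698.3, 868.5 and 873.8 with the compound, with no overlap (0.58 ± 0.12, adjusted p = 0.767 in limma). Nono, an RNA-binding protein of nuclear paraspeckles, had the smallest change of the 10, at 0.26 ± 0.06. It read 1250, 1309 and 1132 with vehicle and 1483, 1519 and 1414 with the compound, also with no overlap. The other 8 were Gsta1, Txndc12, Kgd4, Fkbp3, Stub1, Exosc4, Med6 and Serpini1. The largest change of the 10 named genes with a lower value was that of Nkx2-5, a homeobox gene known from the heart, at -0.93 ± 0.24. It read 29.4, 24.2 and 62.6 with vehicle and 19.7, 7.3 and 28.0 with the compound, with overlapping groups. The other 9 were Psmb10, Meg3, Mapk14, Plcg1, Nup98, Jup, Itga3, Xylt2 and Zfp575.

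Their direction under the PPARγ virus was compared as a description. The sign was the same under the PPARγ virus in 4 of the 10 higher genes and in 5 of the 10 lower ones, against 52.4% of all tested probe sets, and 0 of the 20 passed there. The probe set with the smallest p of all, 1374700_at, carries no gene name and was singled out after its values were seen. It read 25.1, 15.2 and 29.6 with vehicle and 54.2, 39.7 and 50.1 with the compound, with no overlap and a log2 change of 0.94 ± 0.17, against 0.02 under the PPARγ virus.

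**Figure D5:**
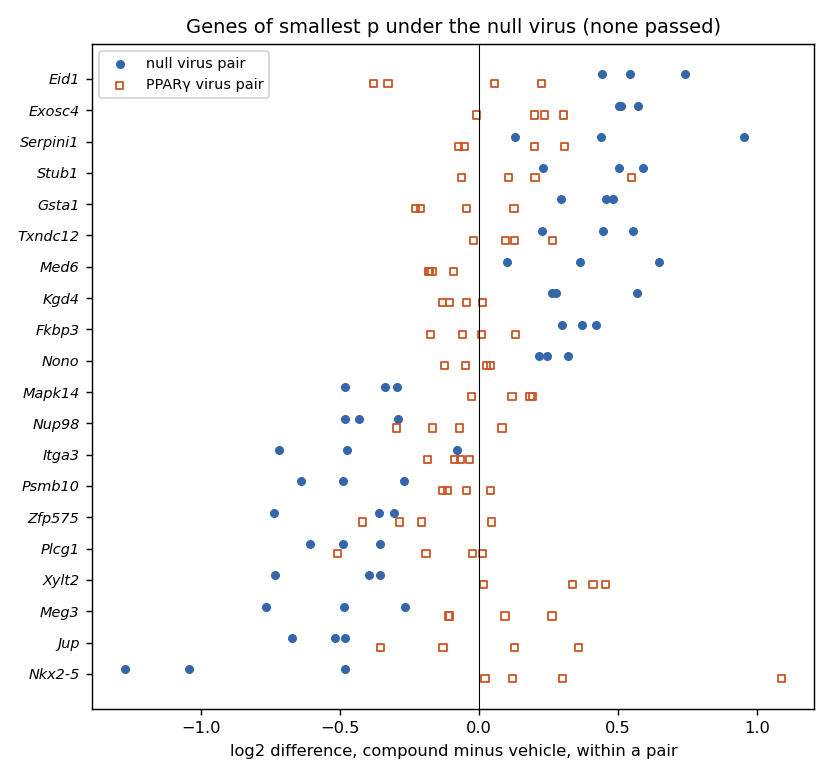
Log2 difference, compound minus vehicle, within each of the 3 null virus pairs for the 10 higher and 10 lower named genes of smallest p in limma (blue points), and within each of the 4 PPARγ virus pairs (open orange squares). All 3 null virus pairs share a direction in each of the 20 genes, which were chosen by p in these same pairs, so this is a description only. The mean PPARγ virus changes lie between -0.22 and 0.38.

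The largest changes were those of dim probe sets. Only 7 probe sets had a log2 change beyond 1 either way, against 26 under the PPARγ virus, and the values ranged from -1.40 (Nfasc) to 1.22 (a probe set of Stat2). Nfasc, which encodes the adhesion protein neurofascin, read 50.5, 51.1 and 38.3 with vehicle and 19.9, 13.7 and 11.4 with the compound, with no overlap, and it was lower in each pair. A brighter probe set of Nfasc had a log2 change of -0.15 under the null virus, with overlapping groups. The Stat2 probe set read 78.3, 8.5 and 35 with vehicle and 73.9, 70.8 and 87.6 with the compound, and another probe set of Stat2, the interferon signalling factor, had a log2 change of 0.00. Among genes whose groups did not overlap, Pola2 (0.95), Rnaseh1 (0.94), C5h9orf152 (0.69), Ptprv (0.68) and Rpia (0.67) had the largest higher values, while a brighter probe set of Rpia had -0.02. The largest lower values after Nfasc were those of Tpsb2, a mast cell tryptase (-1.17), Igfbp2 (-0.78), Sec31a (-0.72) and Poglut3 (-0.69), and another probe set of Sec31a had -0.25. Some of these values rested on 1 pair. Without pair 4, whose vehicle array read 6.8, the log2 change of Pola2 was 0.15. Without pair 3, which holds the array with the Gapdh ratio of 18.9, that of Poglut3 was -0.09, and without pair 1 that of Tpsb2 was -0.58. Under the PPARγ virus the changes were 0.79 for Pola2, 0.15 for Rnaseh1, -0.02 for C5h9orf152, 0.47 for Ptprv and -0.41 for Rpia. Those of the lower genes were 0.52 for Nfasc, -1.13 for Tpsb2, -1.18 for Igfbp2, -0.43 for Sec31a and -0.03 for Poglut3, and none of the 10 passed there. Igfbp2 exceeded the filter intensity of 39.3 only in vehicle arrays. These read 40.1 and 47 under the null virus and 48.7 and 45.2 under the PPARγ virus. No compound array read above 33.5, so Igfbp2 was tested only through its vehicle arrays. Such a selection favours a lower value with the compound. Under the null virus, only compound arrays exceeded that intensity for Pola2 (40.4 and 62.5) and Ptprv (47.1). For Nfasc only vehicle arrays did (50.5 and 51.1). These 3 were tested partly through those arrays, which favours a higher value for Pola2 and Ptprv and a lower value for Nfasc.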

How the data were processed

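The deposited values are intensities, 1 per probe set and array, which the authors had scaled on a linear scale: in the table, the 2% trimmed mean is 150.0 in each column. The software that summarised the probes is not given in the sources used here. No detection calls were used, an array gives no depth, and precision is limited by how many arrays there are. Genome positions are not used here. Of 15923 probe sets, 57 controls were left out, and 10078 above 39.3 (the 40th percentile) in at least 4 of 14 arrays were tested. Of these, 8488 carry 1 gene name, 235 several and 1355 none in the platform annotation.

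Values were taken as log2(intensity + 4.6) and fitted with limma 3.58.1 in R 4.3.3 (lmFit, eBayes with trend), with the pair as a block and a compound term for each virus. P-values were adjusted by Benjamini-Hochberg over all probe sets tested. The block was used because the comparison is paired by replicate number. Over probe sets, null virus arrays of one number deviated together from their group means (r of 0.445 to 0.475), and those of different numbers did not (-0.29 to -0.197). PPARγ virus arrays of one number had an r of 0.574 to 0.702. There, some arrays of different numbers also deviated together, 1 with 3 (0.177 and 0.329) and 2 with 4 (0.182 and 0.171), so the pairs were less clearly apart. The code was tested on simulated data. For a gene with several probe sets, the brightest stood for it in the lists.

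Named genes are the receptors, the 10 of smallest p each way, the PPARγ virus responders of the lipid lists and up to 8 others, the member of smallest p of each list, up to 5 of the largest non-overlapping changes each way, and islet genes. The members and lists were chosen with earlier results of these data known. Alternatives were the pseudocount, filter, block, arrays fitted, normalization, trend, the replicate 2 columns and leaving out each pair.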

Additional observations from a re-analysis of the deposited data

Results flagged for a closer look

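In 5 probe sets the compound's log2 change under the PPARγ virus differed from that under the null virus by limma's test of the difference. The difference was 2.81 for Fabp4, 1.96 for Gsta4, 1.78 for the unnamed probe set 1398445_at, 1.48 for Igfbp1 and 1.08 for G0s2, each higher with the added receptor. Under the null virus alone the 5 changes were 0.60, 0.17, -0.99, -0.36 and 0.13 in that order, and that of Gsta4 ran from 0.02 to 0.42 over the alternatives. Null virus groups of 3 arrays were too small to test for a single array that stands apart.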

How the results depend on the processing

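Under the null virus, 0 probe sets passed in limma in all 17 alternatives, with 95 to 732 at an unadjusted p under 0.05 and a smallest adjusted p of 0.25 to 1.00. Without the replicate block there were again 0 under the null virus, 6 in place of 40 under the PPARγ virus, and 0 in place of 5 for the difference between viruses (143 at an unadjusted p under 0.05). As a random block, the pair left 2 for the difference. Without a filter, 21 passed under the PPARγ virus and 2 for the difference; with the filter on the null virus arrays, 1 passed for the difference; and without the trend, 24 and 3 passed. Leaving out 1 pair gave 18 to 40 and 2 to 4, and a target list median of -0.033 to 0.057, lowest without null virus pair 4. The median of the 36 PPARγ virus responders under the null virus stayed between 0.07 and 0.11 in all 17 alternatives. Dropping the filter or changing the block, the trend or the PPARγ virus arrays fitted cannot move a null virus estimate. The replicate 2 columns only add a pair with a difference of 0. Those alternatives therefore do not test how stable this median is. The cause of the shifts in counts and medians was not tested. Dim probe sets, such as Fabp4, Cd36 and Igf1 under the null virus, limit what can be seen.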
